A study of Mus musculus with 17 samples.

Results

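The interleukin-6 (IL-6) family was followed here through 10 genes in the infarcted mouse heart. They were chosen by name and comprise 4 secreted ligands (Il6, Il11, Lif and Osm), 4 receptor chains (Osmr, Il6ra, Il11ra1 and the shared signal transducer Il6st), the transcription factor Stat3 and its feedback inhibitor Socs3. All 10 were among the 31647 features of the count table. RNA came from 17 hearts of wild-type male C57BL/6J mice, all young adults carrying no transgene. In the infarct group the left anterior descending coronary artery was permanently tied, a model without reperfusion, and the infarct zone was dissected 5 days later from 9 mice picked at random among those operated. The 8 sham mice underwent surgery without the ligation, and their left ventricle was taken after the same 5 days. The sham tissue was therefore whole ventricular wall and the other tissue a dissected lesion, so that an effect of ligation and a difference between these pieces of tissue cannot be told apart.

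Ligands of this family bind the shared chain gp130, the product of Il6st, together with a further receptor chain. IL-6 and IL-11 use the non-signaling chains encoded by Il6ra and Il11ra1, whereas leukemia inhibitory factor and oncostatin M signal through gp130 paired with the LIF receptor or the oncostatin M receptor. The assembled receptors activate Janus kinases, which phosphorylate STAT3. STAT3 turns on Socs3, whose product binds gp130 and the kinases and shuts the signal down. In the heart the family is known for acute-phase responses, cardiomyocyte survival and remodeling, and for effects on fibroblasts.

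Levels are given as CPM, counts relative to a library size scaled by TMM (the trimmed mean of M values). Each transcript is counted once at its 3′ end, so that the values do not grow with transcript length. Sham libraries held 1820809 to 4257919 counts and infarct libraries 1237675 to 4738307. Mitochondrially encoded transcripts took 22.9 to 32.4% of the sham counts and 4.22 to 19.5% of those from infarcts, where replicate 1 held the highest share and the other 8 libraries at most 6.78%. Infarct replicate 1 also stood apart in the summed level of 8 cardiomyocyte markers, with 26854 CPM against 2757 to 6507 CPM in the other infarcts. Across the 12301 genes tested by edgeR's quasi-likelihood test, 69.5% passed an adjusted p of 0.05, 36.3% as higher and 33.1% as lower in the infarct zone, and the median log2 fold change was 0.05.

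Of the 10 genes, 6 passed the filter on low counts, and these were the 4 receptor chains, Socs3 and Stat3. Socs3, Il6ra, Osmr and Stat3 were called higher in the infarct zone, Il11ra1 was called lower, and Il6st did not pass the test. These 5 calls among 6 tested genes stand against the 69.5% of all tested genes that were called. Socs3 and Il6ra, at 5 to 15 and 6 to 17 counts per sham library, passed through their infarct counts. Their calls are therefore not independent of the filter. For Socs3, Il6ra and Osmr every infarct library was above every sham library, as it was for 16.6% of tested genes, with every infarct library below for another 16.5%. Without infarct replicate 1 the calls were 3 higher and 1 lower, since Stat3 was lost (log2 fold change 0.30, adjusted p = 0.115, edgeR). The 4 ligands had too few counts for the fit, none exceeding 3 counts in a sham library, and were compared by an exact permutation test of mean CPM. All 4 were higher in the infarct zone. In the infarct zone Il6st was the most abundant of the 10 transcripts (129 ± 15.3 CPM, SD, n = 9) and Lif the least (1.84 ± 1.26 CPM), below Il11 and Osm by less than the spread between libraries.

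**Figure D1:**
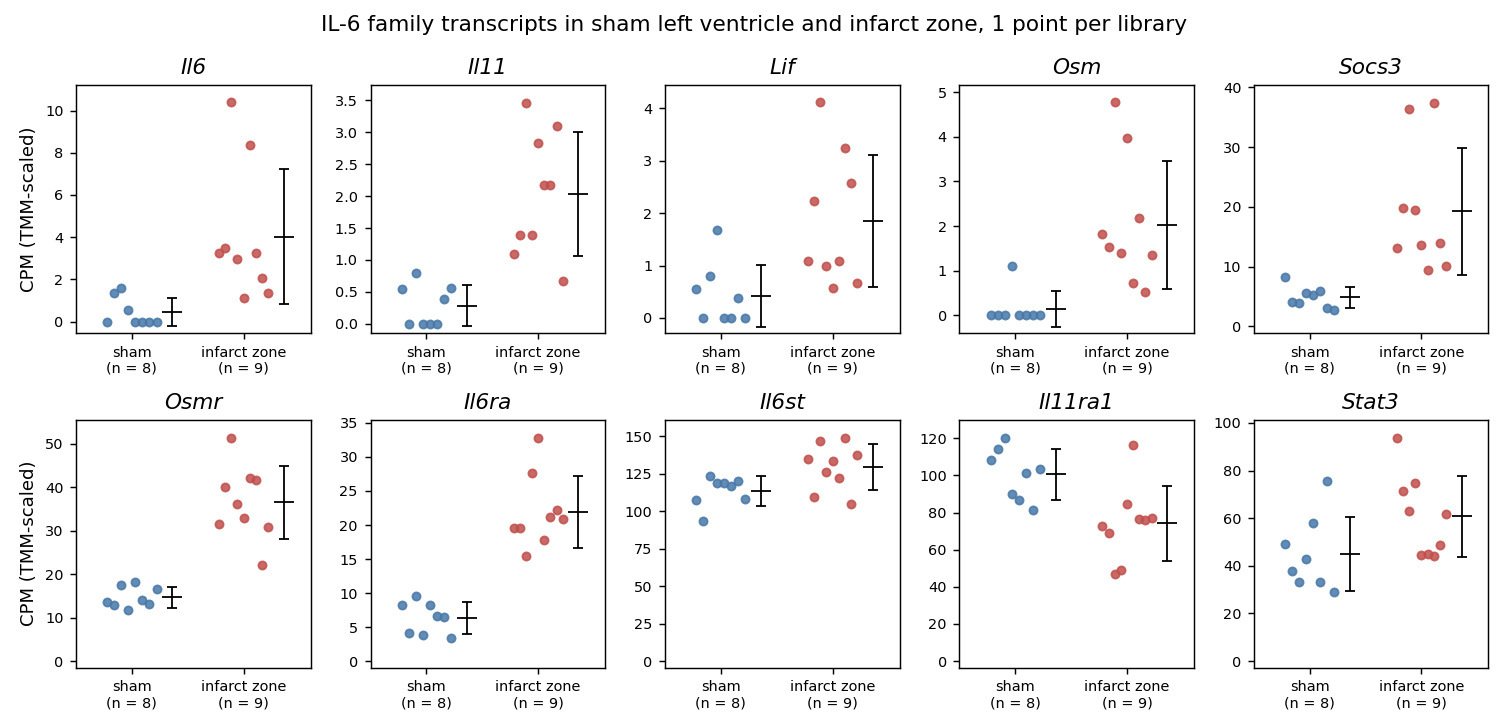
Levels of the 10 genes in each library, as TMM-scaled CPM on a linear axis, with 8 sham and 9 infarct zone libraries per panel. Each point is 1 library, the long dash is the group mean and the bar the SD. Socs3, Osmr and Il6ra do not overlap between the groups, the ligands start near 0 in sham, and Stat3, Il6st and Il11ra1 overlap.

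Il6, which encodes the cytokine that gave the family its name, had 0 to 2 counts per sham library and no count in 5 of the 8. In the infarct zone its counts ran from 2 to 63 with a median of 9, and the level rose from 0.437 ± 0.669 CPM (SD, n = 8) to 4.03 ± 3.18 CPM (n = 9). Infarct replicates 3 and 6 were the highest, at 10.4 and 8.35 CPM, and 7 of the 9 infarct libraries lay above every sham library. The difference of 3.59 CPM passed the test (exact two-sided permutation over 24310 splits, p = 0.000699). Pooled over libraries, 151 counts in the infarct zone and 5 in sham gave a ratio of 13.1 with a 95% counting interval from 5.50 to 41.0. The ratio was 19.9 without sham replicate 3 and 9.41 without infarct replicate 3. Counting intervals of this kind cover counting error only.

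Il11, a profibrotic ligand of the family in heart and lung fibroblasts, had 0 or 1 count per sham library. Its infarct counts lay between 2 and 21 with a median of 6, in CPM a sham mean of 0.285 ± 0.324 (SD, n = 8) against 2.03 ± 0.963 in the infarct zone (n = 9). The infarct libraries were above every sham library in 8 of 9 cases, with replicate 9 the exception at 0.676 CPM (exact permutation test, p = 0.000247). The pooled counts of 64 and 4 gave a ratio of 6.95 (95% counting interval 2.59 to 26.3).

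Osm, the ligand that the oncostatin M receptor is named for and a product of macrophages and neutrophils, was absent from the counts of 7 sham libraries. The remaining one, sham replicate 4, held 2 counts. Each infarct library had at least 1 count and the highest had 29, with a median of 5. The mean rose from 0.139 ± 0.394 CPM (SD, n = 8) to 2.03 ± 1.44 CPM (n = 9), with 7 of 9 infarct libraries above sham replicate 4 (exact permutation test, p = 0.000452). Infarct replicates 3 and 5 were the highest at 4.78 and 3.97 CPM. The ratio of 70 pooled counts to 2 was 15.2, and so few sham counts left it between 4.06 and 128. Without sham replicate 4 the sham counts were 0 and no ratio is given.

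Lif encodes leukemia inhibitory factor, a ligand that cardiomyocytes respond to. Its sham counts were 0 to 3, of which sham replicate 4 held 3 of 6 in all, and its infarct counts were 1 to 25 with a median of 5. It rose from 0.425 ± 0.589 CPM (SD, n = 8) to 1.84 ± 1.26 CPM (n = 9), the smallest change of the 4 ligands, and 4 of the 9 infarct libraries lay above every sham library (exact permutation test, p = 0.00921). The pooled ratio was 4.78 with an interval of 2.08 to 13.5, and it was 8.34 without sham replicate 4 and 3.66 without infarct replicate 3.

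When no filter was applied, edgeR also called each of the 4 ligands higher, with adjusted p values of 2.51e-05 for Il6, 0.000255 for Osm, 0.000801 for Il11 and 0.00915 for Lif. In that fit 20.9% of 27668 genes were called higher. DESeq2 gave adjusted p values of 3.74e-05, 0.000168, 0.00119 and 0.0112 for the same genes, with 27.9% of 19150 genes called higher. Set against a floor of 3 counts in each sham library, on average 1.79 CPM, the infarct mean was 2.25 times the floor for Il6, 1.14 times for Il11, 1.13 times for Osm and 1.03 times for Lif, each below the pooled ratio. The macrophage markers, which summed to 335 to 492 CPM in sham, summed to 1853 to 5072 CPM in the infarct zone. All 6 were higher, beside 36.3% of all tested genes. The macrophage marker with the fewest sham counts, 4 to 13 per library, passed the filter through its infarct counts. The neutrophil markers summed to 4.44 to 12.3 CPM across sham and to 15.2 to 210 CPM across infarcts, where 3 of 6 passed the filter and were called higher. All 3 were low in sham, Csf3r at most 3 counts per library, and passed through their infarct counts, so their calls are not independent of the filter. Ly6g, a defining marker of neutrophils, was at or near 0 in both groups, with no sham count and 3 counts in all over the infarcts. The T cell markers summed to 0 to 5.43 CPM across sham and 3.72 to 19.6 CPM across infarcts, with none tested and Cd8a at 0 in every sham library. The part of these cells in the ligand values was not tested. In tissue RNA, a change in the number of cells of a type and a change in the RNA that each cell makes cannot be told apart.

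To show the promoters of ligands that were each near 0 in sham and higher in the infarct zone, the 250 bases before a transcription start of Il6, Il11 and Lif are printed. They are taken from RefSeq on GRCm38.p6 and written 5′ to 3′ on the strand of the gene. Whether the ligands vary together between libraries was not tested. Capitals mark matches to AP-1 (TGANTCA), C/EBP (TTGCNNAA) or NF-kappaB, each searched on both strands. The 9 genes with a promoter entry had 11 windows of 250 bases before to 50 after a start. Osm had no entry.

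The Il6 window is chr5:30012864-30013113 on the plus strand, of which no base lies in an annotated untranslated region.

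Il6: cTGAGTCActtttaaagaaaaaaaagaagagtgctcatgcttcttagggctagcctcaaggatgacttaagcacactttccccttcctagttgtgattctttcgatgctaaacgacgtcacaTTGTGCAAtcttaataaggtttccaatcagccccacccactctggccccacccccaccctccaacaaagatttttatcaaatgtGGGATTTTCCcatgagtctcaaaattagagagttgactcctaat

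Il11 has 2 annotated starts. The window of the first, chr7:4782858-4783107 on the minus strand, held no match and is not printed, and the second gives chr7:4778142-4778391 on the same strand.

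Il11: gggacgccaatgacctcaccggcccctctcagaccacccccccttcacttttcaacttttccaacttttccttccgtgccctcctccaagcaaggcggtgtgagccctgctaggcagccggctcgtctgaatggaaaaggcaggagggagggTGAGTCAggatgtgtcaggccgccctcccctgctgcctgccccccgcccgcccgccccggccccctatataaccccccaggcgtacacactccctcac

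For Lif the window is chr11:4257318-4257567 on the plus strand, of which 11 bases fall in the first exon of another annotated transcript.

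Lif: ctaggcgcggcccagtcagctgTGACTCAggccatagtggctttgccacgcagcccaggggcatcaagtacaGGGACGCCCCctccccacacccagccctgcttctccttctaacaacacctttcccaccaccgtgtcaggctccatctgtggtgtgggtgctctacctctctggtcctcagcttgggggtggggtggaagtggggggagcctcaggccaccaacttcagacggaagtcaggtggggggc

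Il6 held an AP-1 match that began 249 bases before the start, a C/EBP match at 128 and an NF-kappaB match, GGGATTTTCC, at 44. Il11 held 1 AP-1 match at 98 bases before the start. Lif held an AP-1 match at 228 and an NF-kappaB match, GGGACGCCCC, at 178. No matches overlapped each other in these windows. Among all 32851 promoter windows of the same length, AP-1 matched in 7.81%, C/EBP in 10.8% and NF-kappaB in 8.46%. Osmr was the only other gene of the 9 with an AP-1 match, and that one lay within the transcribed part of the window. Osm (chromosome 11, 4236420 to 4241026) and Lif (chromosome 11, 4257557 to 4272514) are neighbors on the plus strand in GRCm38, while Il6 lies on chromosome 5 and Il11 on chromosome 7.

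Among the receptor chains, Il6ra and Osmr rose while Il6st did not pass the test and Il11ra1 fell. Il6ra (chromosome 3, 89864059 to 89913196, minus strand) encodes the ligand-binding chain for IL-6, which can also act as a soluble receptor after cleavage. Its level ran from 3.33 to 9.50 CPM in sham, with a median of 6.58, and from 15.5 to 32.9 CPM in the infarct zone, with a median of 20.9. The groups did not overlap, and infarct replicates 4 and 5 were the highest. The mean rose from 6.31 ± 2.31 CPM (SD, n = 8) to 21.9 ± 5.29 CPM (n = 9), a 3.44-fold change (log2 fold change 1.78 ± 0.21 SE, 95% interval 1.35 to 2.21, adjusted p = 7.03e-08, edgeR). With no filter on low counts the log2 fold change was 1.84 (adjusted p = 6.29e-10, edgeR).

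Osmr (chromosome 15, 6813577 to 6874969, minus strand) encodes the chain that pairs with gp130 to bind oncostatin M. In sham it ran from 11.7 to 18.1 CPM with a median of 13.8, a narrow spread, and in the infarct zone from 22.2 to 51.4 CPM with a median of 36.2. Every infarct library exceeded every sham library, replicate 8 being the lowest infarct and replicate 3 the highest. The change was 2.51-fold, from 14.7 ± 2.37 CPM (SD, n = 8) to 36.5 ± 8.44 CPM (n = 9), with a log2 fold change of 1.33 ± 0.15 SE (95% interval 1.01 to 1.65, adjusted p = 7.2e-08, edgeR).

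Il6st (chromosome 13, 112464070 to 112510086, plus strand), which encodes gp130, was abundant in both groups. It ran from 93.7 to 124 CPM in sham with a median of 118 and from 105 to 149 CPM in the infarct zone with a median of 134. The ranges overlapped, although 6 infarct libraries were above the highest sham library. Its log2 fold change was 0.19 ± 0.10 SE with a 95% interval from -0.02 to 0.40 (adjusted p = 0.0970, edgeR), so the test does not show that its level was the same. Without infarct replicate 2 or 8, the 2 infarct libraries with the lowest levels, the value was 0.24 and passed the threshold (adjusted p = 0.0430 and 0.0363).

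Il11ra1 (chromosome 4, 41699989 to 41769474, plus strand), the ligand-binding chain for IL-11, went the other way from its ligand. It ran from 81.3 to 120 CPM in sham with a median of 102 and from 47.1 to 116 CPM in the infarct zone with a median of 75.9. In 7 of the 9 infarcts the level was below every sham library, and infarct replicate 6 was high at 116 CPM. The mean fell from 101 ± 13.7 CPM (SD, n = 8) to 74.2 ± 20.2 CPM (n = 9), 1.36-fold lower (log2 fold change -0.44 ± 0.15 SE, 95% interval -0.75 to -0.14, adjusted p = 0.0103, edgeR). With total counts in place of TMM, where 74.8% of tested genes were called higher, the value was 0.63 while the median of all tested genes moved up by 1.09, so that Il11ra1 remained below that median. The last 500 bases of its transcript match Gm13305 at 98.8%, and 146 bases match Il11ra2 at 98.63%, so reads could be split among them. Gm13305 had 1 to 7 counts across sham libraries and 3 to 17 across infarcts, against 138 to 211 and 141 to 497 for Il11ra1. Galt overlaps Il11ra1 on the same strand.

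Lifr, the receptor chain for leukemia inhibitory factor, was lower. It ran from 28.7 to 62.6 CPM in sham with a median of 44.4 and from 14.5 to 26.3 CPM in the infarct zone with a median of 21.2, without overlap. The change was 2.09-fold, from 43.9 ± 11.7 CPM (SD, n = 8) to 21.2 ± 3.60 CPM (n = 9), with a log2 fold change of -1.06 ± 0.15 SE (adjusted p = 1.46e-06, edgeR). With total counts alone it was 0.02 and not called.

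The chains were therefore also compared within each library, where the ratio of 2 transcripts does not depend on how libraries are scaled. These ratios add 1 count to each gene and are averaged over libraries on the log2 scale. On this average there were 35.0 Osmr per 100 Lifr in sham and 169 per 100 in the infarct zone, a 4.83-fold shift. On the log2 scale this ratio ran from -1.96 to -1.0 in sham and from -0.24 to 1.51 in the infarct zone. All 9 infarct libraries were above all sham libraries, and only infarct replicate 8 still held fewer Osmr than Lifr counts. This separation follows from the single genes, since Osmr was higher and Lifr lower without overlap, so the test of their ratio adds no separate result. The difference of 2.27 between the means of -1.51 ± 0.35 (SD, n = 8) and 0.76 ± 0.55 (n = 9) passed an exact two-sided permutation test (p = 4.11e-05, the smallest that 24310 splits can give, and 6.17e-05 adjusted over 3 ratios). Osmr relative to Il6st moved from 13.3 to 27.9 per 100, a 2.10-fold shift that was likewise free of overlap (log2 difference 1.07, exact permutation p = 4.11e-05, adjusted 6.17e-05).

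**Figure D2:**
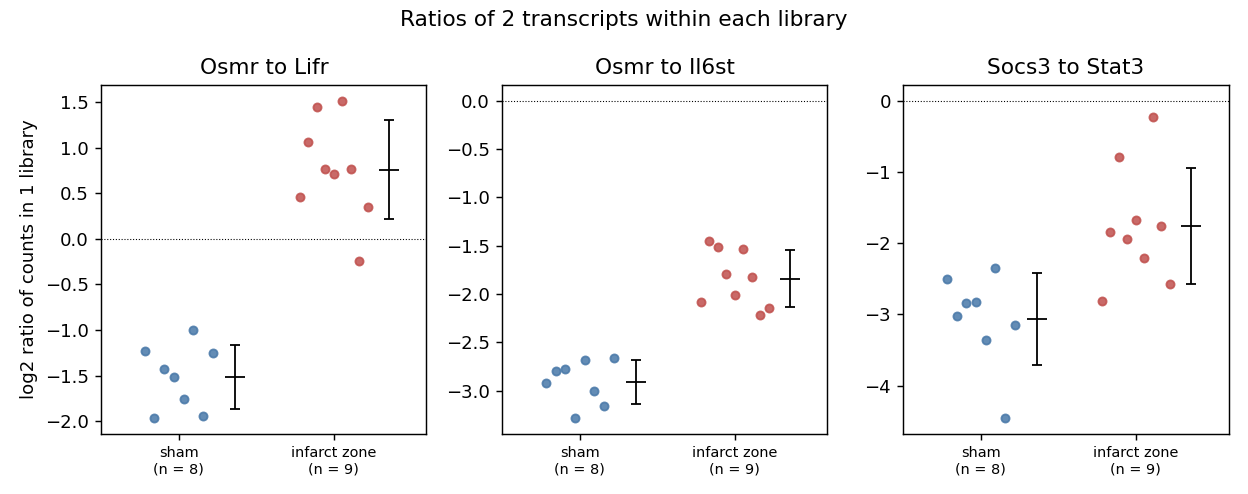
Log2 ratio of the counts of 2 transcripts in the same library, with 1 count added to each, for 8 sham and 9 infarct zone libraries. Points are libraries, long dashes group means, bars the SD and the dotted line equal counts. Osmr to Lifr and Osmr to Il6st separate the groups, and Socs3 to Stat3 overlaps.

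Socs3 (chromosome 11, 117966079 to 117970047, minus strand) encodes the inhibitor that ends gp130 signaling. It ran from 2.78 to 8.21 CPM in sham with a median of 4.62 and from 9.44 to 37.4 CPM in the infarct zone with a median of 13.9. No infarct library overlapped with sham, and infarct replicates 3 and 7 were far above the others at 36.4 and 37.4 CPM. The mean rose 4.02-fold from 4.84 ± 1.77 CPM (SD, n = 8) to 19.2 ± 10.6 CPM (n = 9), with a log2 fold change of 2.01 ± 0.32 SE (95% interval 1.34 to 2.67, adjusted p = 6.93e-06, edgeR). With no filter on low counts the log2 fold change was 2.07 (adjusted p = 6.17e-08, edgeR). The same replicates 3 and 7 held the highest summed neutrophil markers, 165 and 210 CPM against 15.2 to 86.7 CPM in the other 7 infarcts. The part of neutrophils in the Socs3 level was not tested.

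The Socs3 promoter is shown because it alone among the 9 genes with a window held a match to the palindromic STAT motif TTCNNNGAA, which 8.30% of all promoter windows hold. The window is chr11:117969367-117969616 on the minus strand, and the capitals mark TTCTTAGAA at chr11:117969512-117969520, from 154 to 146 bases before the start. This window lies within the annotated span of the gene, which reaches 117970047, so the start used is inside that span. No base of the window lies in an annotated untranslated region.

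Socs3: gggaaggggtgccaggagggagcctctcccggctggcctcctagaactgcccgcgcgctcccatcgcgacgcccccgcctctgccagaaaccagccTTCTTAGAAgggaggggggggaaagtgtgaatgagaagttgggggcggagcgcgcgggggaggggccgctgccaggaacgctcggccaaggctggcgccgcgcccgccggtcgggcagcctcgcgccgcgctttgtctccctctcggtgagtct

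Stat3 (chromosome 11, 100885098 to 100939540, minus strand) encodes the transcription factor itself. It ran from 28.9 to 75.5 CPM in sham with a median of 40.5 and from 43.9 to 93.9 CPM in the infarct zone with a median of 61.8. Infarct replicate 1 was the highest and the only one above all sham libraries. Among the infarct libraries it also had the highest summed cardiomyocyte markers, though below every sham library. The log2 fold change of 0.43 ± 0.19 SE (95% interval 0.04 to 0.82) just passed the test (adjusted p = 0.0452, edgeR), from 44.9 ± 15.6 CPM (SD, n = 8) to 60.8 ± 17.1 CPM (n = 9). The call was lost when any one of sham replicates 1, 2, 3, 4, 6 or 8 or infarct replicates 1, 2 or 4 was left out, with log2 fold changes of 0.30 to 0.44 and adjusted p values of 0.0578 to 0.115. It was also lost in DESeq2 (adjusted p = 0.0610). The 3′ end of Stat3 overlaps that of Stat5a on the opposite strand, and Stat5a was lower in the infarct zone.

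Relative to Stat3 in the same library, Socs3 rose 2.47-fold. The log2 ratio rose from -3.06 ± 0.65 (SD, n = 8) to -1.76 ± 0.81 (n = 9), and the difference of 1.30 passed the test (exact permutation p = 0.00107, unchanged by adjustment over 3 ratios). The groups overlapped, with 7 of 9 infarct libraries above all sham libraries and replicates 7 and 3 the highest.

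Among the other ligands, 5 of 7 had a feature and 1 was tested. Ctf1 encodes cardiotrophin-1, a ligand that acts on cardiomyocytes through gp130 and the LIF receptor. It was 3.37-fold lower, from 11.1 ± 4.82 CPM (SD, n = 8) to 3.51 ± 2.30 CPM (n = 9), with 8 of 9 infarcts below every sham library (log2 fold change -1.75 ± 0.36 SE, adjusted p = 0.000160, edgeR). That call was lost with total counts alone, at -0.69 (adjusted p = 0.0686). Ctf2, Clcf1, Il27 and Ebi3 were below the filter. With no filter on low counts 5 other ligands were tested, 2 called higher and 1 lower, beside 20.9% of all genes called higher. DESeq2 called 2 of 4 higher and 1 lower, beside 27.9% called higher. Ebi3, a subunit shared by several cytokines of the wider family, had at most 3 counts per sham library and from 5 to 30 per infarct library, all 9 infarcts being above all sham in CPM. For Clcf1, which encodes cardiotrophin-like cytokine, sham counts were 0 to 5 and infarct counts 2 to 39. Of the other receptors besides Lifr, Cntfr, Il27ra and Il31ra were below the filter, at no more than 5.10 CPM in any library.

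Of 11 kinase, STAT and adaptor genes, all tested, 5 were higher, 4 lower and 2 not called. These 9 calls of 11 stand beside 69.5% of all tested genes. Their median log2 fold change was 0.01, beside 0.05 over all tested genes. The higher ones were the kinase genes Tyk2 (1.05), Jak3 (0.59) and Jak2 (0.38), the interferon-responsive factor Stat2 (0.56), and the adaptor Shc1 (1.03), given as log2 fold changes. Stat5b (-1.11), Stat5a (-0.99), the phosphatase Ptpn11 that links gp130 to the MAP kinase route (-0.94) and its partner Gab1 (-0.93) were lower. With total counts alone none of these 4 was called. In that fit 7 of the 11 were higher, Jak1 (1.04) and Grb2 (1.09) among them, beside 74.8% of all tested genes. Jak1 (-0.05 ± 0.13 SE), the kinase most used by gp130, and the adaptor Grb2 (0.01 ± 0.10 SE) did not pass the test. Jak2 was lost without sham replicates 5, 6, 7 or 8 or infarct replicate 3, at 0.32 to 0.36 (adjusted p = 0.0523 to 0.0763), and Jak2, Jak3 and Stat2 were not called after libraries were thinned to the smallest total.

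**Figure D3:**
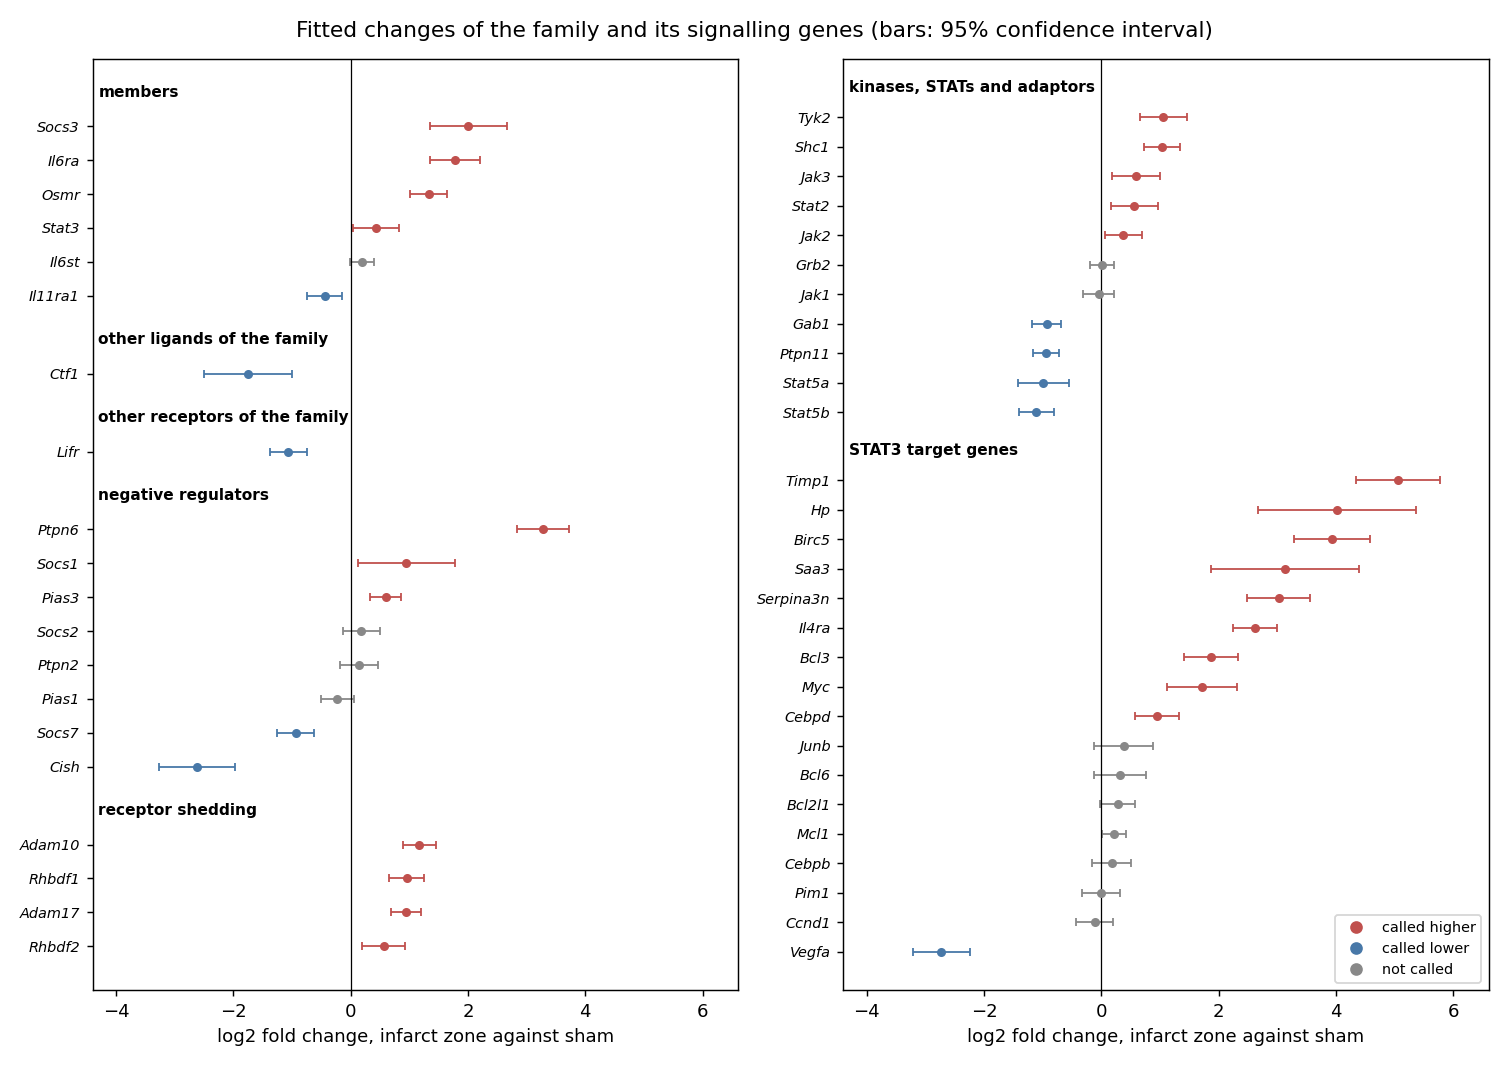
Fitted log2 fold changes of the infarct zone against sham for the tested genes of each list, with 95% confidence intervals as bars, red for genes called higher, blue for lower and gray for not called at an adjusted p of 0.05. Timp1 (5.05) and Hp (4.02) lie farthest to the right, Vegfa (-2.73) and Cish (-2.62) farthest to the left.

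Of 8 negative regulators, 3 were higher, 2 lower and 3 not called, 5 calls of 8 beside 69.5% of all tested genes, with a median log2 fold change of 0.16. With total counts alone 6 were higher and 1 lower, where 74.8% of all tested genes were higher. Ptpn6, the phosphatase SHP-1 of blood cells, rose 9.72-fold, from 1.04 to 8.82 CPM across sham libraries to 35.5 to 62.5 CPM across infarcts (log2 fold change 3.28 ± 0.22 SE, adjusted p = 1.08e-11, edgeR). With 2 to 18 counts per sham library, Ptpn6 passed the filter through its infarct counts. Cish, a feedback inhibitor of STAT5 signaling, fell 6.15-fold from 65.8 ± 30.3 to 10.8 ± 8.30 CPM (log2 fold change -2.62 ± 0.31 SE, adjusted p = 1.09e-07, edgeR). Cish stayed below every sham library in all 9 infarcts, so that Socs3 and Cish, both members of the SOCS family, were called in opposite directions. Pias3, which binds STAT3, was 0.60 higher and Socs7 0.94 lower (log2 fold change -0.94), the latter not called with total counts alone. Socs1 was 0.95 higher at 2.64 ± 1.76 against 5.01 ± 2.26 CPM, a call that did not hold without sham replicates 1, 3, 4, 7 or 8 (adjusted p = 0.0584 to 0.0734). Socs2 (0.18), Ptpn2 (0.14) and Pias1 (-0.22) did not pass the test, although Pias1 was called lower without sham replicate 2 (-0.31, adjusted p = 0.0353). Socs1 was below the filter when any infarct library other than replicate 6 was left out, which left 2 of 7 tested higher and 2 lower.

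All 4 genes for shedding of receptors were higher, beside 36.3% of all tested genes, with a median log2 fold change of 0.95. They were the proteases Adam10 (1.17) and Adam17 (0.94), which can release the IL-6 receptor from the cell surface, and the iRhoms Rhbdf1 (0.96) and Rhbdf2 (0.56), which escort Adam17. Adam17 ran from 18.5 to 36.4 CPM across sham and from 41.7 to 63.5 CPM across infarcts, without overlap (adjusted p = 4.61e-07, edgeR). Rhbdf2 was not called after thinning (0.51, adjusted p = 0.136).

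Of 19 genes listed as STAT3 targets, 17 were tested, and 9 were higher, 1 lower and 7 not called, where 36.3% of all tested genes were higher and 33.1% lower. The median log2 fold change was 0.95 beside 0.05 over all tested genes. With total counts alone 16 were higher and 1 lower, where 74.8% of all tested genes were higher. Most have other known inducers as well. Timp1, an inhibitor of matrix metalloproteinases, rose 33.2-fold, from 7.76 to 17.4 CPM across sham to 125 to 1037 CPM across infarcts (log2 fold change 5.05 ± 0.35 SE, adjusted p = 2.1e-11, edgeR). Hp, which encodes the acute-phase protein haptoglobin, rose by 4.02 and Birc5, which encodes the mitotic protein survivin, by 3.93 on the log2 scale. Both were free of overlap between the groups. Sham libraries held 0 to 8 counts of Hp and 0 to 9 of Birc5. Hp and Birc5 passed the filter through their infarct counts, as did others of the 9 higher genes that were low in sham. Their calls, and the count of 9, are therefore not independent of the filter. At the other end, Vegfa, the vascular growth factor, fell 6.63-fold from 187 ± 31.2 to 28.5 ± 15.1 CPM (log2 fold change -2.73 ± 0.24 SE, adjusted p = 7.48e-10, edgeR). The cyclin gene Ccnd1 (-0.11) and the kinase gene Pim1 (-0.01) did not pass the test. Without infarct replicate 1 the list had 10 higher and 2 lower, Ccnd1 then being at -0.28 (adjusted p = 0.0498). Lcn2 was below the filter and Reg3b had no count in any library. Over the same libraries the 8 cardiomyocyte markers were all lower, summing to 60428 to 72184 CPM across sham and 2757 to 26854 CPM across infarcts, while the 6 fibroblast markers summed to 1227 to 2341 and 9092 to 16003 CPM with 5 of 6 higher. The 6 endothelial markers summed to 357 to 706 CPM across sham and 265 to 470 CPM across infarcts. Kdr was called lower (-1.70), also under each alternative, and Cldn5 lay at the threshold (-0.50, adjusted p = 0.0498, edgeR). The Cldn5 call was lost without any one of sham replicates 1, 2, 3 or 5 or infarct replicates 2, 3, 4, 5, 7, 8 or 9 (-0.36 to -0.49, adjusted p = 0.0717 to 0.151, edgeR). With total counts alone it was reversed (0.55), and 5 of the 6 endothelial markers were higher, beside 74.8% of all tested genes. The part of this shift in cell types in the changes of the IL-6 family was not tested.

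How the genes vary together from infarct to infarct was examined for 6 pairs over the 9 infarct zone libraries. None of the 6 passed the adjusted threshold, and none had an unadjusted p under 0.05. The highest Pearson's r values were 0.565 for Osmr and Socs3 (exact permutation p = 0.115, adjusted 0.240), 0.557 for Osm and Socs3 (p = 0.118, adjusted 0.240) and 0.551 for Osm and Osmr (p = 0.120, adjusted 0.240). Spearman's rho for these pairs was 0.40, 0.533 and 0.467, with exact permutation p values of 0.291, 0.148 and 0.213 that were all 0.578 after adjustment. Without the 2 libraries farthest from the median, r was 0.474, 0.593 and 0.519. Infarct replicate 3 was high in Osm, Osmr and Socs3 at once. Il11 and Socs3 gave r = 0.403 (exact permutation p = 0.280, adjusted 0.419, rho 0.333), which was 0.07 without infarct replicates 1 and 9. Stat3 and Socs3 gave r = -0.01 (exact permutation p = 0.976, rho -0.05), and 0.549 without infarct replicates 1 and 7. Il6st and Stat3 gave r = -0.01 as well (exact permutation p = 0.976, rho -0.17).

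**Figure D4:**
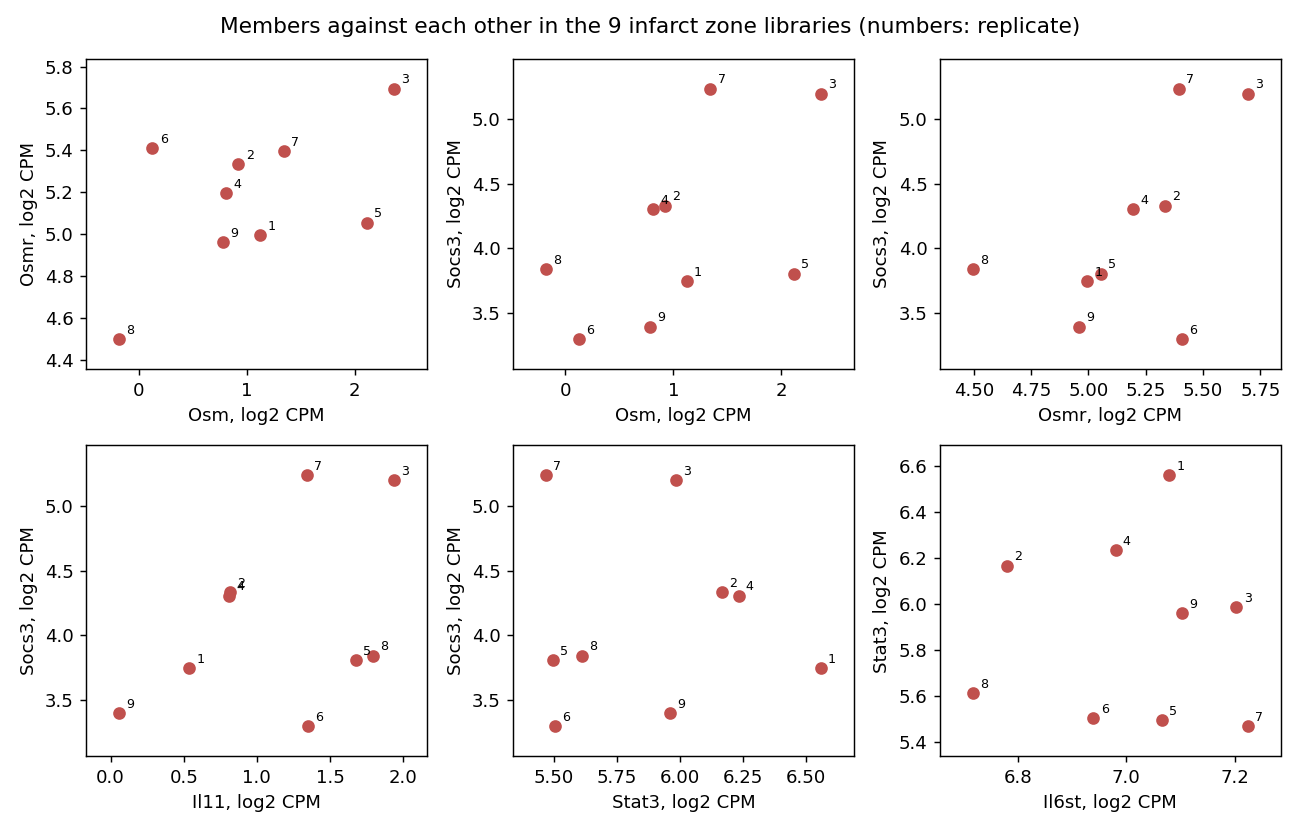
Log2 CPM of 6 pairs of genes against each other in the 9 infarct zone libraries, with the replicate number beside each point. Replicate 3 lies at the upper right for Osm with Osmr, Osm with Socs3 and Osmr with Socs3, and the pairs of Stat3 with Socs3 and of Il6st with Stat3 show no slope (r = -0.01 for both).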

How the data were processed

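The data were counts per gene in 17 heart libraries, 8 sham and 9 infarct zone, each from 1 mouse as far as the sources used here tell. The authors prepared 3′ end libraries (massive analysis of cDNA ends) from total RNA, removed PCR duplicates by molecular identifiers, trimmed reads with Cutadapt, mapped them to mm10 and deposited raw counts from HTSeq, without normalization. The submitters' processing notes name Bowtie2 and DESeq2 beside these. The annotation release and the treatment of multi-mapped reads were not given in the sources used here. The deposited table held 31647 features, 35 of them merged, and all 17 columns were used.

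Genes passing filterByExpr (minimum count 10) were scaled by TMM (factors 0.613 to 1.54) and tested with the two-sided quasi-likelihood test of edgeR 4.0.16 in R 4.3.3, with group as the only term and Benjamini-Hochberg adjustment over 12301 genes. Log2 CPM used a prior count of 1. The 4 ligands among the 10 genes were outside the filter, with at most 3 counts in every sham library (a floor of on average 1.79 CPM), and were tested by exact permutation of the difference in mean CPM. Genes of the other lists outside the filter were not tested in the main fit. Genes low in a single group could pass the filter through the counts of the other group, so their calls are not independent of it. Ratios added a pseudocount of 1. Alternatives were DESeq2 1.42.0, other scalings and filters, removal of mitochondrially encoded features, thinning to the smallest library, a replicate block and the omission of each library. The procedures were tested on simulated data. Replicate numbers do not pair the groups, and no 2 libraries were copies, with chi-square per degree of freedom from 2.56 to 281 over 136 pairs.

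The 10 genes and all lists were chosen with earlier results of these data known. Every gene of the family and signaling lists may be named, of the STAT3 targets the 3 highest and 3 lowest fitted values, and of the markers the highest and lowest. Named in addition were Ly6g, Cd8a, Lcn2 and Reg3b as genes at 0 or below the filter, and Cldn5 as a marker at the threshold. The results of 2 genes that met the rule are not reported here, and the counts leave them out. Coordinates are those of GRCm38 (mm10). Promoters are RefSeq windows of GRCm38.p6. Near-identical transcript ends were sought with BLAST 2.17.0 (at least 100 bases at 95% identity). Python 3.11.15, NumPy 2.4.6, pandas 2.3.3, SciPy 1.17.1 and Matplotlib 3.10.9 were used.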

Additional observations from a re-analysis of the deposited data

Results flagged for a closer look

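In 26 groups of values checked for a single library apart from the others, 2 stood out, and chance alone gives about 1 in 20. Both were in sham replicate 4. Its Lif level of 1.67 CPM rests on 3 counts, and the next highest sham library was at 0.792 CPM. Its Osm level of 1.12 CPM rests on 2 counts, while the other 7 sham libraries had none. Without this library Lif and Osm were still higher in the infarct zone.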

How the results depend on the processing

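Of 371 values recomputed under alternatives, 350 kept their direction and their side of the threshold or, for counts of genes, stayed within 1.5 times the reported count. Of the rest 10 were weaker, 5 stronger, 3 reversed and 3 were counts beyond that tolerance. Weaker values were all those of Stat3 and stronger ones those of Il6st, which passed the threshold with upper quartile scaling (0.30), total counts (1.27) and a minimum mean of 50 counts (0.21). The number of genes called higher was 4 and became 7 with DESeq2 and 8 with no filter on low counts, since the ligands were then tested. It was 5 with upper quartile scaling, 6 with total counts alone and 3 with a minimum mean of 50 counts. With total counts alone 74.8% of all tested genes were called higher. The number called lower was 1 and became 0 with total counts alone, under which Il11ra1 reversed to 0.63. Leaving out each library in turn gave 3 to 5 called higher and 1 to 1 called lower. The relation of Stat3 and Socs3 reversed from -0.01 to 0.129 with total counts and to 0.549 without the 2 libraries farthest from the median. Upper quartile scaling shifted the median of all genes by 0.11. Il6ra and Socs3 could not be fitted at a minimum mean of 50 counts.

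The replicate numbers gave no sign of pairing, since 1 of 8 same-numbered pairs had a correlation over 0.1 (range -0.22 to 0.13) and 1 sham library correlated best with its own number. With the replicate block over 16 libraries the calls were 4 higher and 1 lower, among 7883 genes called of 12033, against 8153 without the block. The depth of 1237675 to 4738307 counts left the ligands at or near the floor in sham, so that the sizes of their changes are known only within wide counting intervals.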
